A study of Homo sapiens with 42 samples.

Results

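Interferon-stimulated genes and the genes of HLA antigen presentation were followed as 1 set of 38 genes, chosen by symbol out of 50648 genes counted in all lines of the series. The set holds 29 interferon-stimulated genes, 6 genes of HLA class I presentation (HLA-B, HLA-C, B2M, TAP1, TAP2 and NLRC5) and 3 of HLA class II presentation (CIITA, CD74 and HLA-DRA). All 38 symbols were found in each of the 7 deposited count tables.

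The RNA came from 7 cell lines of human acute lymphoblastic leukaemia, each sequenced as an untreated group (NT in the labels) and a group given L-asparaginase at 1 IU/ml for 4 h (LASP in the labels), with 3 libraries in each of the 14 groups. L-asparaginase is an enzyme drug that depletes asparagine from the medium. Nalm6, SUPB15, RS411, REH and 697 are B-cell precursor lines, and CEM and DND41 are T-cell lines. All 14 groups were grown in the same kind of serum-containing medium with added glutamine, and the labels name no interferon, genetic change or other agent in any of them. The labels describe 3 separate experiments per line without tying libraries to them, so the p-values measure the spread between these libraries. Each line stands for 1 leukaemia, so a difference between B-lineage and T-lineage lines rests on 5 and 2 lines.

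Type I interferons bind a receptor of IFNAR1 and IFNAR2, whose kinases JAK1 and TYK2 phosphorylate STAT2. With IRF9 it enters a complex, ISGF3, that binds the interferon-stimulated response element (ISRE) of target genes. Interferon gamma acts at the gamma-activated site (GAS), and through IRF1. Many of the targets are antiviral effectors, and unstimulated cells transcribe them at a low tonic level. HLA class I molecules show peptides on nearly all cells with the help of B2M and the TAP transporter and are driven in lymphocytes by NLRC5. Class II molecules depend on CIITA and are carried by B-lineage cells, while human T cells acquire them on activation.

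Promoter sequences show what these genes share outside the measurements. RefSeq windows of 300 bases, from 250 before to 50 after a transcription start (build GRCh38.p14), were at hand for 28 of the 38 genes, with DDX58 listed there as RIGI. The other 10 are IRF7, IFIT2, OAS2, OASL, MX2, USP18, TRIM22, NLRC5, CIITA and HLA-DRA. The ISRE core GAAANNGAAA, searched on both strands, was present in at least 1 window of 17 of the 28 genes (60.7%), against 3.57% of all 35116 windows. Since 7 of the 28 genes had several windows and the genes were chosen as interferon or HLA genes, the difference is a description only. It was present in 14 of 22 interferon-stimulated genes and in 3 of 5 class I genes (B2M, TAP1 and TAP2). The GAS core TTCNNNGAA was present in 7 of the 28 genes (25%) and in 7.66% of all windows. The element TGATGNAA, which resembles sites of the amino acid response factor ATF4, was present in 2 of the 28 (IFIT3 and MX1, 7.14%) and in 3.62% of all windows.

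A set of 6 stretches of 100 bases carries the ISRE or GAS matches of genes that the results below turn on, with each match in capitals. The ISRE matches of BST2, TAP1 and B2M are tandem copies whose letters overlap, a GAS match of BST2 overlaps its ISRE and is not in capitals, and those of IFIT1 and IFIT3 are separate. The stretches are chr10:89392468-89392567 (plus strand) for IFIT1, chr10:89332411-89332510 (plus strand) for IFIT3, chr19:17405703-17405802 (minus strand) for BST2, chr6:32853781-32853880 (minus strand) for TAP1, chr15:44711331-44711430 (plus strand) for B2M and, with a GAS match, chr5:132490844-132490943 (minus strand) for IRF1, in GRCh38.p14 and each written 5′ to 3′ on the strand of the gene.
IFIT1: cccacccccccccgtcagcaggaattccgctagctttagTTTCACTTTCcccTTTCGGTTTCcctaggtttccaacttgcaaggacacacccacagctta
IFIT3: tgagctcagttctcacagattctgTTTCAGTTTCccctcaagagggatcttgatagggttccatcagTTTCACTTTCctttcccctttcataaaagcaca
BST2: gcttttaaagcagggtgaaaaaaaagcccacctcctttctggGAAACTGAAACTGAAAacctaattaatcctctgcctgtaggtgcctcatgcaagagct
TAP1: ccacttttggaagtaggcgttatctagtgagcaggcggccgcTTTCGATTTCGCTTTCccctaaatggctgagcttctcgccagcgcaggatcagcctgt
B2M: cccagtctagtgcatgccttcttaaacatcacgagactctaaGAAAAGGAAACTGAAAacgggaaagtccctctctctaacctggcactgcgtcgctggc
IRF1: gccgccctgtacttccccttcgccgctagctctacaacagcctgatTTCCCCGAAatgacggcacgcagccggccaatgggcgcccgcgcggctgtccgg
The first ISRE base lay 116 bases before the start in IFIT1, 94 in IFIT3, 130 in BST2, 134 in TAP1 and 144 in B2M. The window of STAT2, the gene with the largest mean fall below, held neither core.

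Library totals ran from 15.07 to 77.14 M counts, with a median of 40.28 M, and levels are given as CPM, counts relative to the library total after TMM scaling. CPM is not divided by gene length, so levels are compared between lines and never between genes. In CEM all treated libraries were deeper than the untreated ones. The B-lineage markers were at 1 CPM or more for at least 7 of 8 genes in the 5 B lines, where CD3D, CD3E and CD3G were at or near 0. Of the other T markers LCK reached 72 CPM in untreated RS411 and BCL11B 58.3 CPM in untreated 697. In CEM and DND41 CD3D, CD3E, CD3G and TRBC2 were expressed and PAX5 and CD22 were at or near 0. Untreated CEM had 9 of 9 T markers at 1 CPM or more. Untreated DND41 had 7 of 9, with CD5 at 0.773 and CD6 at 0.367 CPM. Each of the 2 lines, untreated, had 3 of 8 B markers at 1 CPM or more. The highest were VPREB1 at 23.7 CPM in CEM and CD79A at 868 CPM in DND41. A lower level in these bulk libraries can mean less RNA of a gene per cell or fewer cells that carry it, which cannot be told apart. DDIT3, a target of the amino acid response, had a mean log2 fold change over the lines of 2.28 ± 0.0778 (SE) and rose in all 7.

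Some libraries stood apart, and they touch this gene set directly. Untreated A of Nalm6, SUPB15, RS411 and DND41 and untreated 1 of 697 departed alike from the other untreated libraries of their lines. Between these 5 departures the median correlation over 9615 genes was 0.622. In these 5 libraries 5 small noncoding RNAs took 3.35% to 7.23% of the counts, against 7.83% to 13.5% in the other untreated libraries and 5.77% to 17.8% in treated ones. Among the 38 genes, STAT2, IRF7, IFI35, ISG15, BST2, HLA-B and TAP1 were lowest of their 3 untreated libraries in all 5, and IFI44 was highest. On the log2 CPM scale ISG15 lay lower there than in the other untreated libraries of the line by 1.90 on average, IRF7 by 1.52, TAP1 by 1.07, BST2 by 1.04 and HLA-B by 0.97, and IFI16 lay higher by 0.52. The library 697 untreated 1 deviated most, with 1.06 CPM of ISG15 against 22.7 and 19.4 CPM. Untreated A of REH and of CEM was likewise lowest of its group for STAT2, BST2, TAP1 and HLA-B. Whether these libraries shared the departure was not tested, and the fits without the 5 libraries kept them. Without untreated A the called genes numbered 8 in REH (5 with it) and 22 in CEM (15 with it). A further 3 treated libraries (SUPB15 C, REH A and RS411 B) held 99, 19 and 3 genes at 1 CPM or more that had 3 counts or fewer in all the other libraries of the line together. The counts over the mean response are given with and without the 5 and the 3 libraries, and other counts where leaving them out moved them most. For the remaining results the part of these libraries was not tested.

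Over the 7 lines the interferon-stimulated genes were more often lower than higher after L-asparaginase, and the class I genes followed in part. STAT2, a signalling component of ISGF3, fell 2.26-fold on average, BST2, the tethering factor that holds budding virions at the membrane, 2.19-fold, and the antiviral effectors IFIT1, TRIM22, OAS2, IFIT3 and OAS3 between 1.54- and 1.74-fold. IRF1, a transcription factor of the interferon gamma response, and DDX58, the RIG-I sensor of viral RNA, rose, by 1.26- and 1.12-fold. Of the 6 class I genes TAP1, TAP2 and B2M fell, and HLA-B, HLA-C and NLRC5 were not called.

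The mean response was defined for 33 genes. For IFI44L, OASL, CIITA, CD74 and HLA-DRA at least 1 group held 3 counts or fewer, so they are described by line only. Of the 33, 2 rose and 17 fell (edgeR quasi-likelihood test, Benjamini-Hochberg adjusted p under 0.05 over all 20983 genes tested), where 17.6% of all genes rose and 19.4% fell. The median log2 fold change of the 33 was -0.19, against -0.017 over all genes. Among the 27 interferon-stimulated genes 2 rose and 14 fell (median -0.23), and among the 6 class I genes none rose and 3 fell (median -0.09). Without the 5 untreated libraries 4 rose and 18 fell (3 of 6 class I genes fell, median -0.14), and without the 3 treated libraries 1 rose and 16 fell. Adding the replicate letter or number as a block gave 3 and 17. The shares of all genes that rose or fell were not computed in these alternatives.

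The map of responses by line shows these patterns for all 38 genes.

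**Figure D1:**
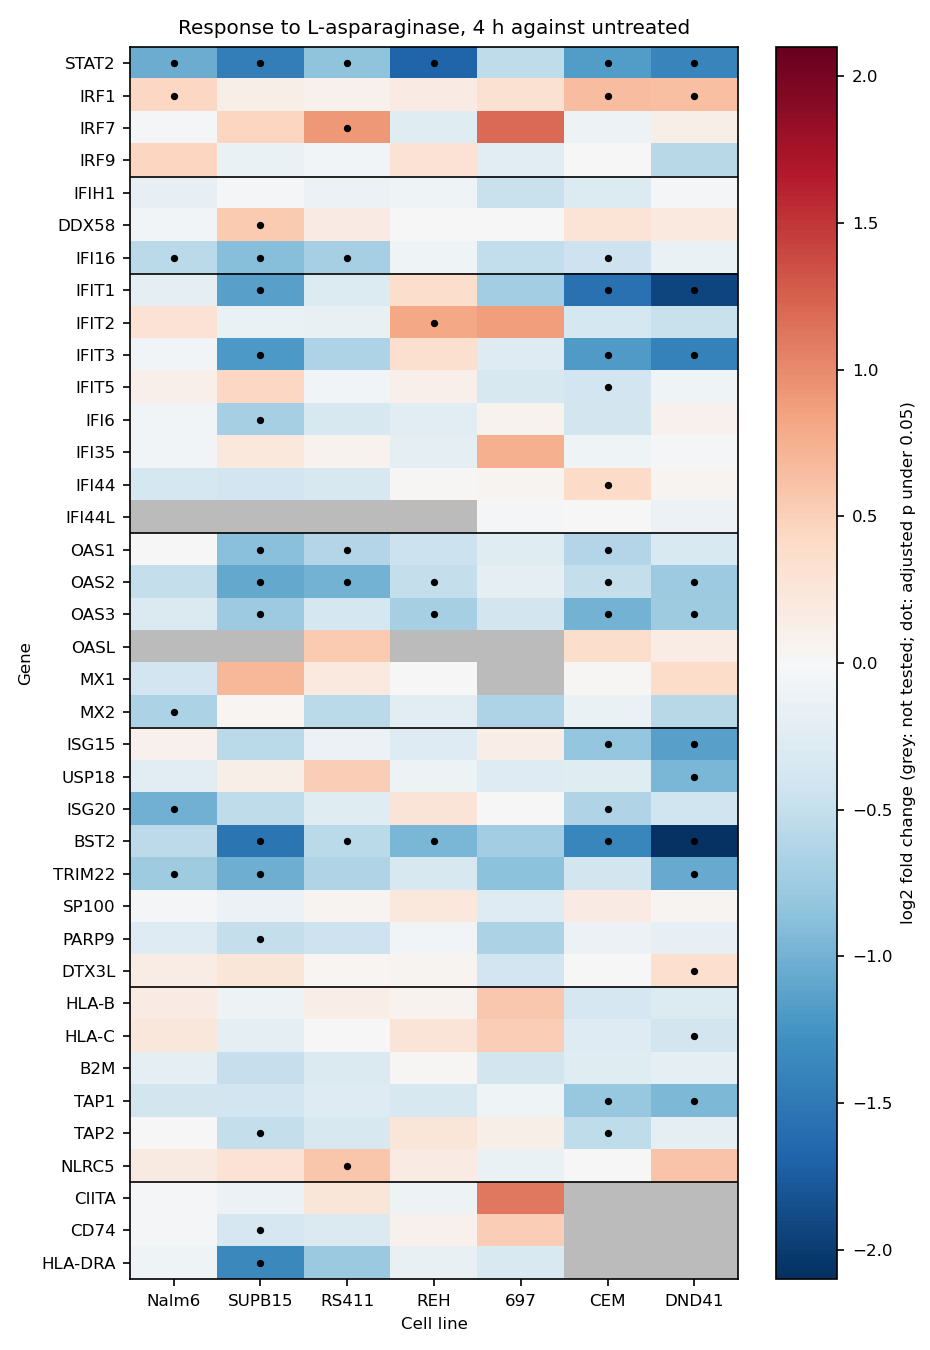
Log2 fold change after 4 h of L-asparaginase for the 38 genes (rows, grouped by role between black lines) in the 7 cell lines (columns), from 1 edgeR model per line with 3 against 3 libraries. Blue is lower, red is higher, a dot marks an adjusted p under 0.05 and grey marks genes not tested. STAT2 is blue with a dot in 6 of 7 lines, no gene has a dot in 697, and the class II genes are grey in CEM and DND41.

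Signalling and transcription factors were led by STAT2. In Nalm6 it stood at 40, 53.4 and 44 CPM untreated and 26.2, 19.6 and 19.2 CPM treated, and in SUPB15 at 39.4, 51.6 and 51.9 CPM untreated and 18.6, 17.5 and 17.2 CPM treated. In RS411 the values were 25.9, 30.6 and 28.7 CPM untreated and 15.9, 15 and 16.1 CPM treated, and in REH 46, 56.7 and 59.6 CPM untreated and 19.3, 13 and 16.8 CPM treated. Every treated library lay under every untreated one in these 4 lines. In CEM STAT2 stood at 33, 37.3 and 39.4 CPM untreated and 15.7, 14 and 18.5 CPM treated, and in DND41 at 41.8, 53.8 and 62.6 CPM untreated and 24, 16.6 and 18.6 CPM treated, again without overlap. In 697 it stood at 19.7, 32.5 and 25.9 CPM untreated and 18.8, 18.2 and 17.1 CPM treated, where untreated 1 was the lowest of its group and close to the treated libraries. The fall passed in 6 lines, from -0.85 ± 0.116, adjusted p = 0.0047, in RS411 to -1.69 ± 0.158, adjusted p = 8.6e-05, in REH (log2 fold change ± SE). In 697 the value was -0.53 ± 0.213, adjusted p = 0.22, and without untreated 1 it was -0.68, adjusted p = 0.0035. The mean was -1.18 ± 0.067, adjusted p = 3.3e-16, or -1.24, adjusted p = 4e-18 without the 5 libraries. The size differed between lines (interaction adjusted p = 0.0066).

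IRF1 moved the other way. In CEM it stood at 68.9, 68.1 and 64.5 CPM untreated and 105, 102 and 108 CPM treated, in DND41 at 129.6, 106 and 121 CPM untreated and 218, 155 and 168 CPM treated, and in Nalm6 at 47.4, 48.7 and 45.6 CPM untreated and 68, 64 and 54.9 CPM treated. The treated libraries of these 3 lines lay above the untreated ones, and IRF1 rose there (0.66 ± 0.0767, adjusted p = 6e-05 in CEM, 0.63 ± 0.16, adjusted p = 0.017 in DND41 and 0.43 ± 0.119, adjusted p = 0.028 in Nalm6). In SUPB15 it stood at 112, 130.5 and 134 CPM untreated and 130.4, 146 and 138 CPM treated, in RS411 at 100.5, 118 and 120.1 CPM untreated and 118, 123 and 119 CPM treated, in REH at 115, 93.4 and 95.4 CPM untreated and 114, 102 and 118 CPM treated and in 697 at 40.3, 56.8 and 48.4 CPM untreated and 68.9, 52.5 and 60.3 CPM treated. The groups overlapped in these 4 lines. The Nalm6 call was lost with no filter on low counts and without untreated B or C or treated A or B, and that of DND41 without untreated B or C. The mean was 0.33 ± 0.0488, adjusted p = 7.7e-07.

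IRF7, the factor that amplifies interferon production, passed only in the model of RS411, where it stood at 8.99, 19 and 16.9 CPM untreated and 25.8, 26.8 and 30.9 CPM treated and rose 1.87-fold (0.91 ± 0.233, adjusted p = 0.038). That call was lost without untreated C or without any 1 of the 3 treated libraries (0.93, adjusted p = 0.12 without treated B). IRF7 went from 11.9 ± 3.44 to 11.5 ± 1.42 CPM in Nalm6, from 7.29 ± 3.1 to 10.2 ± 0.247 CPM in SUPB15, from 14.9 ± 0.352 to 12.3 ± 1.41 CPM in REH, from 3.48 ± 2.67 to 7.96 ± 0.623 CPM in 697, from 3.85 ± 0.91 to 3.57 ± 0.148 CPM in CEM and from 6.58 ± 3.19 to 7.03 ± 0.665 CPM in DND41. Its mean was 0.31 ± 0.142, adjusted p = 0.093, and 0.09, adjusted p = 0.21 without the 5 untreated libraries. IRF9, the DNA-binding part of ISGF3, is given by level only, since it averaged under 1 CPM. Its untreated means ran from 0.406 CPM in Nalm6 to 1.17 CPM in DND41. In the GENCODE v29 annotation 48.4% of its exon bases are shared with AL136295.5 on the same strand, and how the deposited tables assign such reads is not given in the sources used here.

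Among nucleic acid sensors IFI16, which binds DNA, fell in 4 lines. In SUPB15 it stood at 237, 153 and 179 CPM untreated and 92, 112 and 106 CPM treated, in Nalm6 at 90.9, 105 and 96.8 CPM untreated and 59, 67.1 and 68.2 CPM treated and in CEM at 197, 195 and 209 CPM untreated and 139.8, 161 and 141 CPM treated. No treated library reached the untreated range in these lines, and the falls were -0.90 ± 0.174, adjusted p = 0.0064, -0.56 ± 0.104, adjusted p = 0.0045 and -0.43 ± 0.0831, adjusted p = 0.0015. In RS411 IFI16 went from 122 ± 29.1 to 74.9 ± 4.37 CPM (mean ± SD, n = 3; -0.70 ± 0.177, adjusted p = 0.035), a call lost without untreated B or any 1 treated library. It went from 58.8 ± 8.55 to 53.7 ± 5.5 CPM in REH, from 151 ± 75.8 to 107 ± 3.71 CPM in 697 and from 232 ± 54.1 to 208 ± 28.4 CPM in DND41, without a call. The mean was -0.49 ± 0.0775, adjusted p = 3.2e-06, and -0.32, adjusted p = 1.6e-07 without the 5 libraries, where IFI16 was high in 4 of 5. IFIH1, the MDA5 sensor of long double-stranded RNA, had a small mean fall (-0.18 ± 0.0577, adjusted p = 0.011) with a negative sign in all 7 lines and no call in any, and its mean call was lost without the line 697. DDX58 had a mean of 0.16 ± 0.0594, adjusted p = 0.033 and passed in SUPB15, where it stood at 10.8, 9.06 and 9.92 CPM untreated and 13.5, 15.5 and 15 CPM treated (0.55 ± 0.147, adjusted p = 0.025). The mean call of DDX58 was lost in 16 of 55 alternatives, among them the 3 treated libraries left out together, and its SUPB15 call without untreated B or C or treated B or C.

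The IFIT genes, whose proteins bind foreign RNA ends, split the lines. IFIT1 stood at 6.55, 5.77 and 5.78 CPM untreated and 2.15, 2.5 and 3.65 CPM treated in SUPB15, at 3.9, 4.07 and 4.85 CPM untreated and 1.02, 1.76 and 1.45 CPM treated in CEM and at 1.39, 2.39 and 3.98 CPM untreated and 0.694, 0.686 and 0.594 CPM treated in DND41. Treated and untreated libraries did not overlap, and IFIT1 fell 2.2-fold (-1.14 ± 0.224, adjusted p = 0.0068), 2.96-fold (-1.57 ± 0.203, adjusted p = 0.00012) and 3.82-fold (-1.93 ± 0.387, adjusted p = 0.0062). In REH it stood at 6.93, 6.81 and 10.7 CPM untreated and 8.9, 9.96 and 11.9 CPM treated and in Nalm6 at 10.2, 8.99 and 10.1 CPM untreated and 7.91, 8.61 and 8.42 CPM treated. The REH groups overlapped, with the treated mean higher (0.38 ± 0.196, adjusted p = 0.18), and the Nalm6 groups did not, with a treated mean slightly lower (-0.20 ± 0.142, adjusted p = 0.35). In RS411 it stood at 2.14, 1.1 and 1.22 CPM untreated and 2.18, 0.62 and 0.792 CPM treated and in 697 at 1.74, 1.11 and 1.46 CPM untreated and 1.02, 1.02 and 0.617 CPM treated (-0.29 ± 0.506, adjusted p = 0.75, and -0.73 ± 0.346, adjusted p = 0.29). The groups overlapped in RS411 and lay apart in 697. The mean was -0.80 ± 0.124, adjusted p = 1.9e-06, and the response differed between lines (interaction adjusted p = 0.0017), a call kept in all 48 alternatives tried for it.

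IFIT3 followed the same split. It stood at 12.8, 14.4 and 14.8 CPM untreated and 5.05, 6.13 and 7.17 CPM treated in SUPB15, 13, 16.7 and 20.7 CPM untreated and 6, 6.22 and 6.33 CPM treated in DND41 and 1.65, 3.36 and 3.2 CPM untreated and 0.787, 1.75 and 1.02 CPM treated in CEM. It fell in all 3 (-1.21 ± 0.169, adjusted p = 0.0017, -1.41 ± 0.186, adjusted p = 0.0012 and -1.19 ± 0.307, adjusted p = 0.0093), with 1 overlapping library pair in CEM, where the call was lost without untreated B. In REH IFIT3 stood at 14.3, 16.3 and 22.6 CPM untreated and 21.5, 19.6 and 24.1 CPM treated (0.33 ± 0.163, adjusted p = 0.16). It went from 23.1 ± 4.25 to 21.6 ± 2.01 CPM in Nalm6, from 9.01 ± 1.89 to 5.71 ± 1.75 CPM in RS411 and from 3.65 ± 1.58 to 3.04 ± 0.99 CPM in 697, without a call. The mean was -0.65 ± 0.105, adjusted p = 3.7e-06 and the interaction had an adjusted p of 0.0031. IFIT2 rose in REH, where it stood at 5.46, 5.76 and 8.09 CPM untreated and 8.51, 11 and 13.3 CPM treated (0.81 ± 0.2, adjusted p = 0.012), with all treated above all untreated libraries. That call was lost without untreated B or treated C. IFIT2 went from 7.28 ± 0.215 to 8.81 ± 1.35 CPM in Nalm6, from 9.31 ± 2.05 to 8.51 ± 1.16 CPM in SUPB15, from 5.28 ± 1.29 to 4.67 ± 0.479 CPM in RS411, from 1.13 ± 0.811 to 2.07 ± 0.713 CPM in 697, from 3.21 ± 0.474 to 2.44 ± 0.804 CPM in CEM and from 10.9 ± 4.24 to 7.72 ± 0.841 CPM in DND41, without a call. With the replicate block IFIT1, IFIT2 and IFIT3 all passed as higher in REH (0.39, adjusted p = 0.024, 0.81, adjusted p = 0.00045 and 0.35, adjusted p = 0.022).

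**Figure D2:**
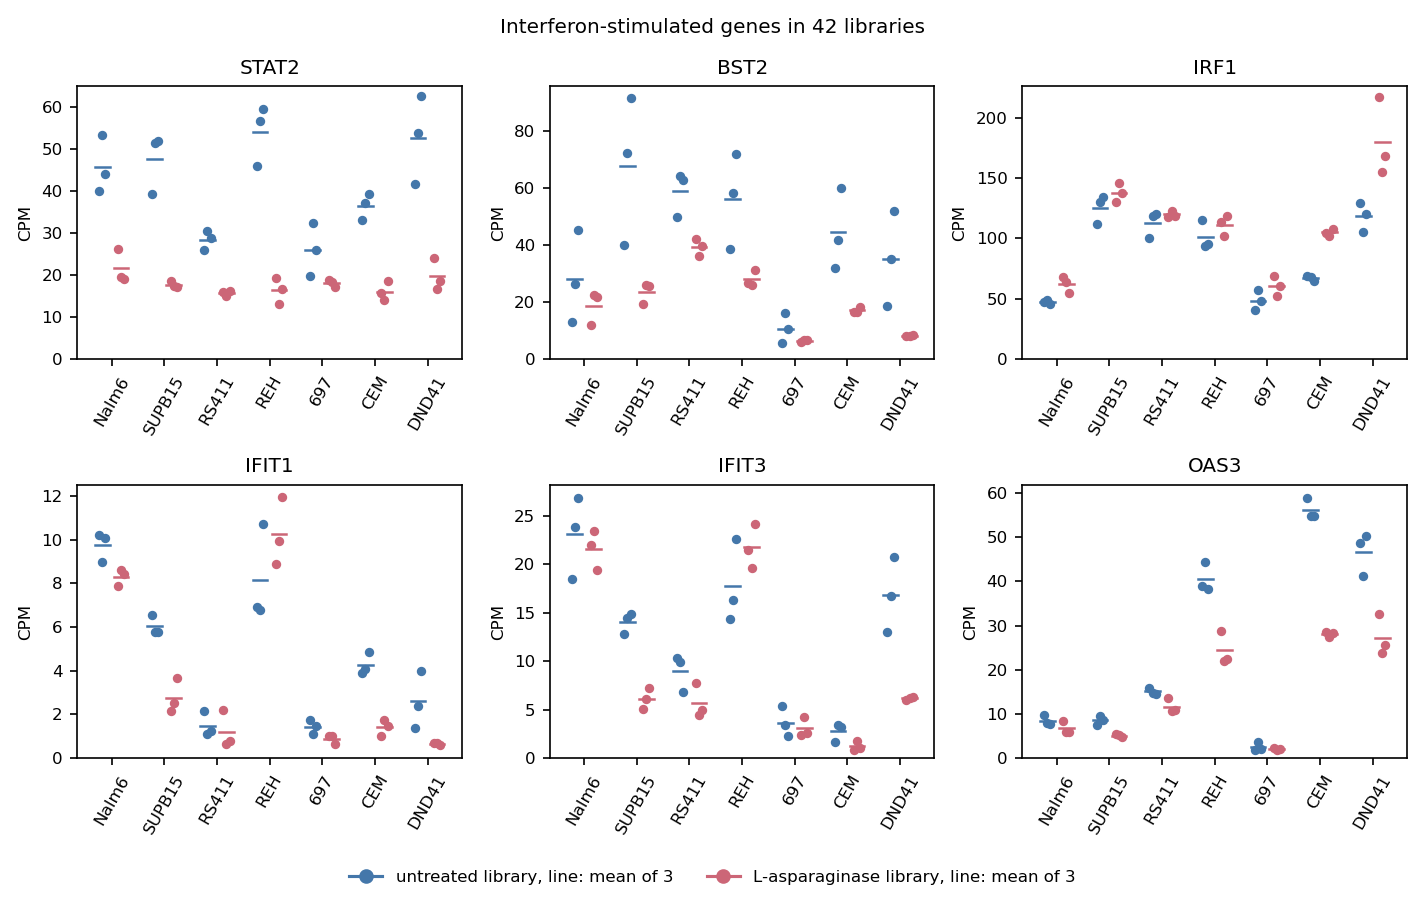
CPM of STAT2, BST2, IRF1, IFIT1, IFIT3 and OAS3 in all 42 libraries, by cell line, with untreated libraries in blue and L-asparaginase libraries in red (points, 3 per group) and horizontal lines at the group means. STAT2 is lower in treated libraries of every line, IRF1 is higher in Nalm6, CEM and DND41, and IFIT1 is lower in SUPB15, CEM and DND41 but not in REH.

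The rest of the IFIT and IFI genes had few calls. IFIT5 fell in CEM (-0.40 ± 0.136, adjusted p = 0.037) and IFI44 rose there (0.39 ± 0.111, adjusted p = 0.015), and both calls were lost on leaving out single libraries of CEM (untreated B among them for each). In SUPB15 IFIT5 passed as higher without untreated A (0.41, adjusted p = 0.024) and with the replicate block (0.43, adjusted p = 0.033). IFI6 fell in SUPB15 (-0.69 ± 0.181, adjusted p = 0.022, lost without any 1 library except untreated A) and in the mean (-0.23 ± 0.0794, adjusted p = 0.019, lost without the 3 treated libraries and without the lines SUPB15, RS411 or CEM). IFI35 was called nowhere, with line values from -0.20 to 0.75. IFI44L was tested in 697, CEM and DND41 with values between -0.12 and 0.01.

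The 2′-5′-oligoadenylate synthetases, which activate RNase L on sensing double-stranded RNA, had some of the most frequent falls, OAS2 in 5 lines and OAS3 in 4. In RS411 OAS2 stood at 65.1, 62.3 and 60.3 CPM untreated and 33.4, 28.9 and 31.1 CPM treated, in SUPB15 at 25.9, 24.8 and 30.7 CPM untreated and 14, 12.4 and 12.9 CPM treated and in DND41 at 20.4, 17.9 and 26.3 CPM untreated and 13.6, 12.1 and 11.6 CPM treated. Treated and untreated ranges were apart in each (-0.99 ± 0.115, adjusted p = 0.0026, -1.07 ± 0.142, adjusted p = 0.0015 and -0.76 ± 0.173, adjusted p = 0.011), and the DND41 call was lost without treated C. In REH and CEM OAS2 went from 16.8 ± 2.88 to 11.6 ± 0.911 CPM and from 9.63 ± 2.29 to 6.74 ± 0.869 CPM (-0.50 ± 0.147, adjusted p = 0.029 and -0.50 ± 0.163, adjusted p = 0.029), calls that were lost without several single libraries. In Nalm6 it went from 47.7 ± 11.9 to 33 ± 7.07 CPM and in 697 from 29.4 ± 2.63 to 25.8 ± 4.42 CPM, without a call. The mean of OAS2 was -0.66 ± 0.0668, adjusted p = 3.7e-10.

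OAS3 stood in CEM at 59, 54.9 and 54.8 CPM untreated and 28.6, 27.4 and 28.3 CPM treated, in REH at 38.9, 44.4 and 38.2 CPM untreated and 28.8, 22 and 22.3 CPM treated and in DND41 at 48.6, 41.1 and 50.3 CPM untreated and 32.6, 23.7 and 25.5 CPM treated. All treated libraries were lower (-0.99 ± 0.0811, adjusted p = 5.2e-06, -0.70 ± 0.136, adjusted p = 0.0037 and -0.75 ± 0.16, adjusted p = 0.0084). It went from 8.52 ± 1.09 to 5.08 ± 0.381 CPM in SUPB15 (-0.77 ± 0.171, adjusted p = 0.012, lost without treated B or C), from 15.1 ± 0.695 to 11.6 ± 1.64 CPM in RS411, from 8.44 ± 1.11 to 6.71 ± 1.43 CPM in Nalm6 and from 2.53 ± 0.971 to 1.94 ± 0.215 CPM in 697. OAS1 fell in SUPB15 (from 3.71 ± 0.485 to 2.07 ± 0.526 CPM), RS411 (from 9.18 ± 1.28 to 5.93 ± 0.0695 CPM) and CEM (from 3.19 ± 0.496 to 2.07 ± 0.253 CPM), each call lost without several single libraries of its line. Elsewhere it went from 3.51 ± 0.573 to 3.41 ± 0.543 CPM in Nalm6, from 10.9 ± 2.76 to 7.79 ± 0.403 CPM in REH, from 3.07 ± 1.11 to 2.6 ± 0.485 CPM in 697 and from 12.3 ± 1.54 to 9.68 ± 0.377 CPM in DND41. The means were -0.62 ± 0.0653, adjusted p = 9e-10, for OAS3 and -0.46 ± 0.08, adjusted p = 1.1e-05, for OAS1. OASL, a paralogue that averaged under 1 CPM, had untreated means from 0.04 CPM in 697 to 0.914 CPM in CEM.

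MX2, a capsid-binding GTPase, fell in Nalm6 from 7.59, 7.76 and 9 to 5.02, 5.2 and 4.76 CPM (-0.67 ± 0.154, adjusted p = 0.012, lost without treated C) and in the mean (-0.41 ± 0.0701, adjusted p = 9.9e-06). MX1, its relative, was called in no line. MX1 was nearly silent in 697 (untreated libraries at 0.129, 0 and 0.167 CPM), where it was not tested, and reached 19.4 CPM in untreated REH.

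BST2 showed the widest falls of the ISG15 system and other effectors. It stood at 18.7, 35 and 51.9 CPM untreated and 8.15, 7.93 and 8.35 CPM treated in DND41, 40, 72.2 and 91.7 CPM untreated and 19.3, 25.8 and 25.7 CPM treated in SUPB15 and 32, 41.7 and 60.2 CPM untreated and 16.5, 16.6 and 18.2 CPM treated in CEM. The 3 lines showed no overlap, with falls of 4.21-fold (-2.07 ± 0.298, adjusted p = 0.0015), 2.91-fold (-1.54 ± 0.266, adjusted p = 0.0041) and 2.59-fold (-1.38 ± 0.173, adjusted p = 9.2e-05). In REH it stood at 38.5, 58.3 and 72 CPM untreated and 26.8, 26.1 and 31.3 CPM treated and in RS411 at 49.9, 64.3 and 62.9 CPM untreated and 42.1, 36 and 39.9 CPM treated, again apart (-0.96 ± 0.18, adjusted p = 0.0031, and -0.57 ± 0.126, adjusted p = 0.022). The RS411 call was lost without untreated B or C or any 1 treated library. In Nalm6 BST2 stood at 12.8, 26.3 and 45.2 CPM untreated and 11.8, 22.4 and 21.8 CPM treated and in 697 at 5.5, 16.2 and 10.4 CPM untreated and 6.03, 6.57 and 6.68 CPM treated, and the first untreated library of each lay within or under the treated range. Without that library BST2 fell in both (-0.88, adjusted p = 0.032, and -1.01, adjusted p = 0.0022). The mean was -1.13 ± 0.133, adjusted p = 9.4e-09, or -1.31, adjusted p = 6.2e-14 without the 5 libraries.

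ISG15, the ubiquitin-like modifier, shows the weight of those libraries. It stood at 51.5, 67.7 and 75.5 CPM untreated and 39.4, 34.2 and 36.5 CPM treated in CEM and fell there (-0.81 ± 0.121, adjusted p = 3e-04). In DND41 it stood at 16, 36.1 and 47.7 CPM untreated and 11.5, 15.9 and 16.7 CPM treated, with untreated A inside the treated range (-1.14 ± 0.32, adjusted p = 0.026, lost without untreated B or C or any 1 treated library). In SUPB15 it stood at 6.55, 20.3 and 21.7 CPM untreated and 10.5, 11.1 and 11.6 CPM treated, where untreated A was the lowest of all 6. The mean was -0.41 ± 0.178, adjusted p = 0.073, and -0.65, adjusted p = 9.7e-12 without the 5 libraries, where it passed. USP18, which removes ISG15 and damps the interferon receptor, fell in DND41 from 17, 16.5 and 12.7 to 7.93, 8.32 and 7.07 CPM (-0.96 ± 0.176, adjusted p = 0.0042). The treated libraries there lay apart from the untreated ones, and the interaction of USP18 had an adjusted p of 0.034, lost in 11 of 48 alternatives. In the other lines USP18 went from 5.54 ± 0.73 to 4.57 ± 0.222 CPM in Nalm6, from 38.7 ± 6.26 to 42.9 ± 6.31 CPM in SUPB15, from 3.57 ± 2.02 to 4.92 ± 1.13 CPM in RS411, from 7.83 ± 1.25 to 7.07 ± 0.575 CPM in REH, from 2.17 ± 0.574 to 1.82 ± 0.585 CPM in 697 and from 12.1 ± 1.97 to 10.2 ± 0.23 CPM in CEM, none called. In RS411 it passed as higher without untreated A (1.05, adjusted p = 0.011).

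TRIM22, a nuclear antiviral factor, fell in Nalm6 from 93, 76.6 and 90 to 50.5, 53.4 and 47 CPM, in SUPB15 from 92.3, 75.5 and 88.4 to 43.9, 40.5 and 43.3 CPM and in DND41 from 59.7, 59.8 and 78.2 to 36, 28.8 and 28.1 CPM. The groups did not overlap (-0.75 ± 0.12, adjusted p = 0.0022, -1.02 ± 0.126, adjusted p = 0.0011 and -1.06 ± 0.155, adjusted p = 0.0017). It went from 57.5 ± 14.5 to 37 ± 4.54 CPM in RS411, from 50.2 ± 7.58 to 38.5 ± 4.81 CPM in REH, from 33.4 ± 4.98 to 18.7 ± 2.48 CPM in 697 and from 22.4 ± 4.97 to 17.1 ± 2.92 CPM in CEM, without a call and with a negative sign in each. The mean was -0.73 ± 0.0654, adjusted p = 2.2e-11. ISG20, an exonuclease, fell in Nalm6 from 4.71, 5.14 and 5.79 to 2.51, 2.54 and 2.57 CPM (-1.01 ± 0.174, adjusted p = 0.0033) and in CEM (from 8.52 ± 2.57 to 5.47 ± 0.892 CPM, -0.63 ± 0.199, adjusted p = 0.025, with overlap, lost without untreated B or C or treated A or C). It went from 3.76 ± 0.278 to 2.62 ± 0.392 CPM in SUPB15, from 12.2 ± 2.15 to 10.1 ± 0.441 CPM in RS411, from 3.4 ± 0.426 to 3.95 ± 0.8 CPM in REH, from 6.16 ± 2.68 to 6.13 ± 0.491 CPM in 697 and from 5.54 ± 1.76 to 4.07 ± 0.75 CPM in DND41, without a call. Its mean was -0.38 ± 0.0904, adjusted p = 0.00083.

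PARP9 and DTX3L, partners in 1 ADP-ribosylation and ubiquitin complex that are transcribed from opposite strands of a shared start region, are given side by side, and whether their responses differ was not tested. PARP9 fell in the mean (-0.33 ± 0.0666, adjusted p = 0.00012) and in SUPB15 (-0.50 ± 0.148, adjusted p = 0.035, lost with the replicate block and without untreated C or any 1 treated library). Without the 5 untreated libraries that stood apart, the mean of PARP9 was -0.19, adjusted p = 0.00089. In 4 of those 5 libraries PARP9 was the highest of its untreated group. DTX3L had a mean of 0.05 ± 0.0381, adjusted p = 0.35, with an interaction adjusted p of 0.0063 (lost with no filter on low counts). DTX3L rose in DND41 from 99.5, 88.9 and 106 to 121, 122 and 125 CPM (0.35 ± 0.115, adjusted p = 0.048), a call lost with DESeq2, with other scaling and without any 1 library except untreated A. In 697 it went from 176 ± 29.1 to 135 ± 6.21 CPM (-0.40 ± 0.187, adjusted p = 0.28), and in the other lines from 108 ± 9.19 to 117 ± 7.63 CPM in Nalm6, from 124 ± 9.91 to 149.7 ± 2.36 CPM in SUPB15, from 115 ± 3.88 to 118 ± 6.99 CPM in RS411, from 132 ± 7.38 to 133 ± 5.02 CPM in REH and from 92.8 ± 5.03 to 91.6 ± 3.29 CPM in CEM. In GENCODE v29 the 2 genes share 217 exon bases on opposite strands, 2.43% of those of PARP9. SP100, a component of PML bodies, had a mean of 0.00 ± 0.0688, adjusted p = 1, and was called in no line. Without the 5 untreated libraries its mean passed as higher (0.13, adjusted p = 0.0055), and with the replicate block it was called higher in REH (0.23, adjusted p = 0.037).

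Among the HLA class I genes TAP1, TAP2 and B2M fell in the mean, and whether class I and interferon-stimulated genes differ in their response was not tested. TAP1, 1 chain of the transporter, fell in CEM from 91.7, 114 and 107 to 57.7, 62.1 and 58.9 CPM and in DND41 from 27.8, 45.7 and 47.3 to 20.5, 22 and 19.1 CPM. The groups were apart in both (-0.80 ± 0.0881, adjusted p = 4.3e-05, and -0.94 ± 0.186, adjusted p = 0.0059). In SUPB15 TAP1 stood at 109, 226 and 225 CPM untreated and 133, 153 and 144 CPM treated, with untreated A under all treated libraries (-0.40 ± 0.242, adjusted p = 0.26, against -0.62, adjusted p = 0.00054 without it). In Nalm6 it stood at 69.3, 133 and 102 CPM untreated and 78.8, 75.3 and 73.5 CPM treated, in RS411 at 34, 60.1 and 57.3 CPM untreated and 36.3, 43.6 and 44 CPM treated, in REH at 46.1, 64.1 and 64.2 CPM untreated and 41.6, 43 and 49.8 CPM treated and in 697 at 20.3, 89.2 and 75.7 CPM untreated and 63.6, 51.9 and 57.6 CPM treated. In Nalm6, RS411 and 697 the first untreated library again lay under all treated ones, and without it TAP1 fell in each (-0.57, adjusted p = 0.0085, -0.47, adjusted p = 0.0075 and -0.50, adjusted p = 0.012). The mean was -0.48 ± 0.113, adjusted p = 0.00083, or -0.65, adjusted p = 1.5e-13 without the 5 libraries.

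TAP2, the other chain of the transporter, fell in SUPB15 from 33, 31.7 and 29.1 to 23.6, 23.3 and 20.2 CPM and in CEM from 23, 21.4 and 21.6 to 14.2, 16.9 and 14.4 CPM, without overlap (-0.51 ± 0.132, adjusted p = 0.022, and -0.53 ± 0.1, adjusted p = 0.0014). The SUPB15 call was lost without untreated B or treated B or C. In REH TAP2 stood at 25.2, 25.7 and 24.7 CPM untreated and 23.9, 31.2 and 32.1 CPM treated (0.25 ± 0.123, adjusted p = 0.16), and it passed there as higher without treated A (0.35, adjusted p = 0.044). It went from 33.7 ± 2.42 to 33.1 ± 2 CPM in Nalm6, from 16.8 ± 2.16 to 13.2 ± 1.12 CPM in RS411, from 15 ± 0.176 to 16.6 ± 1.58 CPM in 697 and from 17.7 ± 2.62 to 15.2 ± 1.32 CPM in DND41. Its response differed between lines (interaction adjusted p = 0.0038), with a mean of -0.18 ± 0.047, adjusted p = 0.0021, that was lost without the lines SUPB15 or CEM. In GENCODE v29 32.3% of the exon bases of TAP2 are shared with AL669918.1 on the same strand.

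B2M, the light chain of every class I molecule, had a small mean fall (-0.26 ± 0.0752, adjusted p = 0.0047) and no call in a single line. It went from 2644 ± 148 to 1927 ± 433 CPM in SUPB15, from 1160 ± 63.5 to 999.5 ± 89 CPM in Nalm6, from 1173 ± 235 to 946 ± 43.6 CPM in RS411 and from 1032 ± 215 to 1016 ± 149 CPM in REH. In 697 it went from 1506 ± 611 to 1174 ± 131 CPM, in CEM from 1352 ± 325 to 1131 ± 106 CPM and in DND41 from 970 ± 50 to 828 ± 61.3 CPM. The mean CPM was lower after treatment in all 7 lines, in REH by less than the SD of either group (fitted 0.02 ± 0.171). Treated libraries lay under all untreated ones in Nalm6, SUPB15 and DND41 and overlapped with them in the other 4 lines.

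HLA-B and HLA-C, heavy chains of near-identical sequence whose reads may be split between them, had means of 0.01 ± 0.115, adjusted p = 1, and 0.01 ± 0.0738, adjusted p = 1. Without the 5 untreated libraries the signs were negative (-0.14, adjusted p = 0.071 for HLA-B, and -0.07, adjusted p = 0.33 for HLA-C). HLA-B went from 629.6 ± 159 to 689.6 ± 68.7 CPM in Nalm6, from 1719 ± 563 to 1616 ± 232 CPM in SUPB15, from 489.9 ± 60.8 to 533 ± 19.6 CPM in RS411, from 662 ± 87.5 to 681 ± 56 CPM in REH, from 419 ± 112 to 325 ± 45.3 CPM in CEM and from 136 ± 46 to 109 ± 19.8 CPM in DND41. In 697 HLA-B stood at 250.1, 1190 and 775 CPM untreated and 1111, 1108 and 1064 CPM treated, where untreated 1 alone was far under the rest. HLA-B passed as lower in DND41 without untreated A (-0.53, adjusted p = 0.021). With the replicate block HLA-B (-0.33, adjusted p = 0.012) and HLA-C (-0.25, adjusted p = 0.027) passed as lower in CEM, and HLA-C as higher in REH (0.28, adjusted p = 0.0081). HLA-C fell in DND41 from 202, 246 and 268 to 184, 172 and 176 CPM (-0.39 ± 0.127, adjusted p = 0.045), a call lost without filter and without any 1 library except untreated A. HLA-C went from 248 ± 33.1 to 286 ± 13.4 CPM in Nalm6, from 671 ± 116 to 592 ± 73.3 CPM in SUPB15, from 221 ± 12.2 to 222 ± 9.33 CPM in RS411, from 248 ± 28 to 292 ± 17.9 CPM in REH, from 222 ± 106 to 317 ± 4.01 CPM in 697 and from 248 ± 45.3 to 204 ± 16.4 CPM in CEM. NLRC5, the activator of class I transcription, rose in RS411 from 39.8, 54.7 and 53.3 to 75.3, 72.4 and 71.6 CPM (0.58 ± 0.127, adjusted p = 0.022, lost without any 1 treated library). In DND41 NLRC5 stood at 6.82, 8.14 and 6.64 CPM untreated and 7.86, 12.6 and 11.7 CPM treated (0.60 ± 0.206, adjusted p = 0.056), and in 697 at 15.8, 71.3 and 72.2 CPM untreated and 46.7, 42.4 and 54.4 CPM treated, where it passed as lower without untreated 1 (-0.57, adjusted p = 0.0056). Elsewhere it went from 41.7 ± 1.87 to 46.3 ± 7.98 CPM in Nalm6, from 112 ± 34.7 to 141 ± 13.3 CPM in SUPB15, from 17 ± 0.812 to 18.6 ± 1.3 CPM in REH and from 39.9 ± 4.96 to 39.4 ± 1.37 CPM in CEM. Its mean was 0.22 ± 0.105, adjusted p = 0.095.

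HLA class II genes were measurable in the B lines and at or near 0 in the T lines. HLA-DRA, the class II alpha chain, had 0 counts in all 6 libraries of CEM and of DND41. Against a floor of 3 counts over the untreated group, 0.0342 CPM in CEM and 0.0207 in DND41, its level in untreated SUPB15, the lowest of the B lines, was at least 6000-fold and 9920-fold higher. CIITA, the class II activator, also had 0 counts in untreated CEM and DND41, at least 515-fold and 852-fold below SUPB15. CD74, the invariant chain that escorts class II molecules, had 7 counts in untreated CEM and 1 in untreated DND41, and 373 CPM in 697, the lowest B line.

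In SUPB15 HLA-DRA stood at 213, 201 and 201 CPM untreated and 69.5, 85.2 and 89.6 CPM treated. All treated libraries lay under all untreated ones, and HLA-DRA fell 2.55-fold (-1.35 ± 0.127, adjusted p = 4e-04), a call kept in all 12 alternatives. In RS411 it stood at 393, 255 and 218 CPM untreated and 182, 161 and 162 CPM treated, apart but with a wide untreated group (-0.78 ± 0.222, adjusted p = 0.052). It passed there with the replicate block (-0.73, adjusted p = 0.018) and without untreated A (-0.45, adjusted p = 0.01). In Nalm6 it stood at 776, 1092 and 1102 CPM untreated and 669.8, 1069 and 993 CPM treated, in REH at 866, 1227 and 1134 CPM untreated and 868, 998 and 941 CPM treated and in 697 at 597, 631 and 306 CPM untreated and 362, 492 and 386 CPM treated. The groups overlapped in these 3 lines.

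CD74 in SUPB15 went from 391, 402 and 411 to 305, 334 and 321 CPM (-0.35 ± 0.111, adjusted p = 0.047), a fall that was lost in 9 of 12 alternatives, the replicate block among them. It went from 898 ± 108 to 854 ± 152 CPM in Nalm6, from 514 ± 124 to 415 ± 21.4 CPM in RS411, from 804 ± 65 to 829 ± 48.3 CPM in REH and from 373 ± 152 to 536 ± 63.5 CPM in 697. CIITA in SUPB15 stood at 15.8, 17.1 and 19.9 CPM untreated and 22.6, 14.3 and 12.3 CPM treated with overlap (-0.13 ± 0.228, adjusted p = 0.71). In 697 CIITA stood at 9.49, 26.1 and 21.8 CPM untreated and 37.3, 37 and 49.8 CPM treated (1.11 ± 0.351, adjusted p = 0.14), and without untreated 1 it passed as higher (0.81, adjusted p = 0.0024). It went from 80.5 ± 22.4 to 77.4 ± 2.6 CPM in Nalm6, from 39.9 ± 3.76 to 47.4 ± 3.75 CPM in RS411 and from 66 ± 8.68 to 59.6 ± 9.48 CPM in REH.

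**Figure D3:**
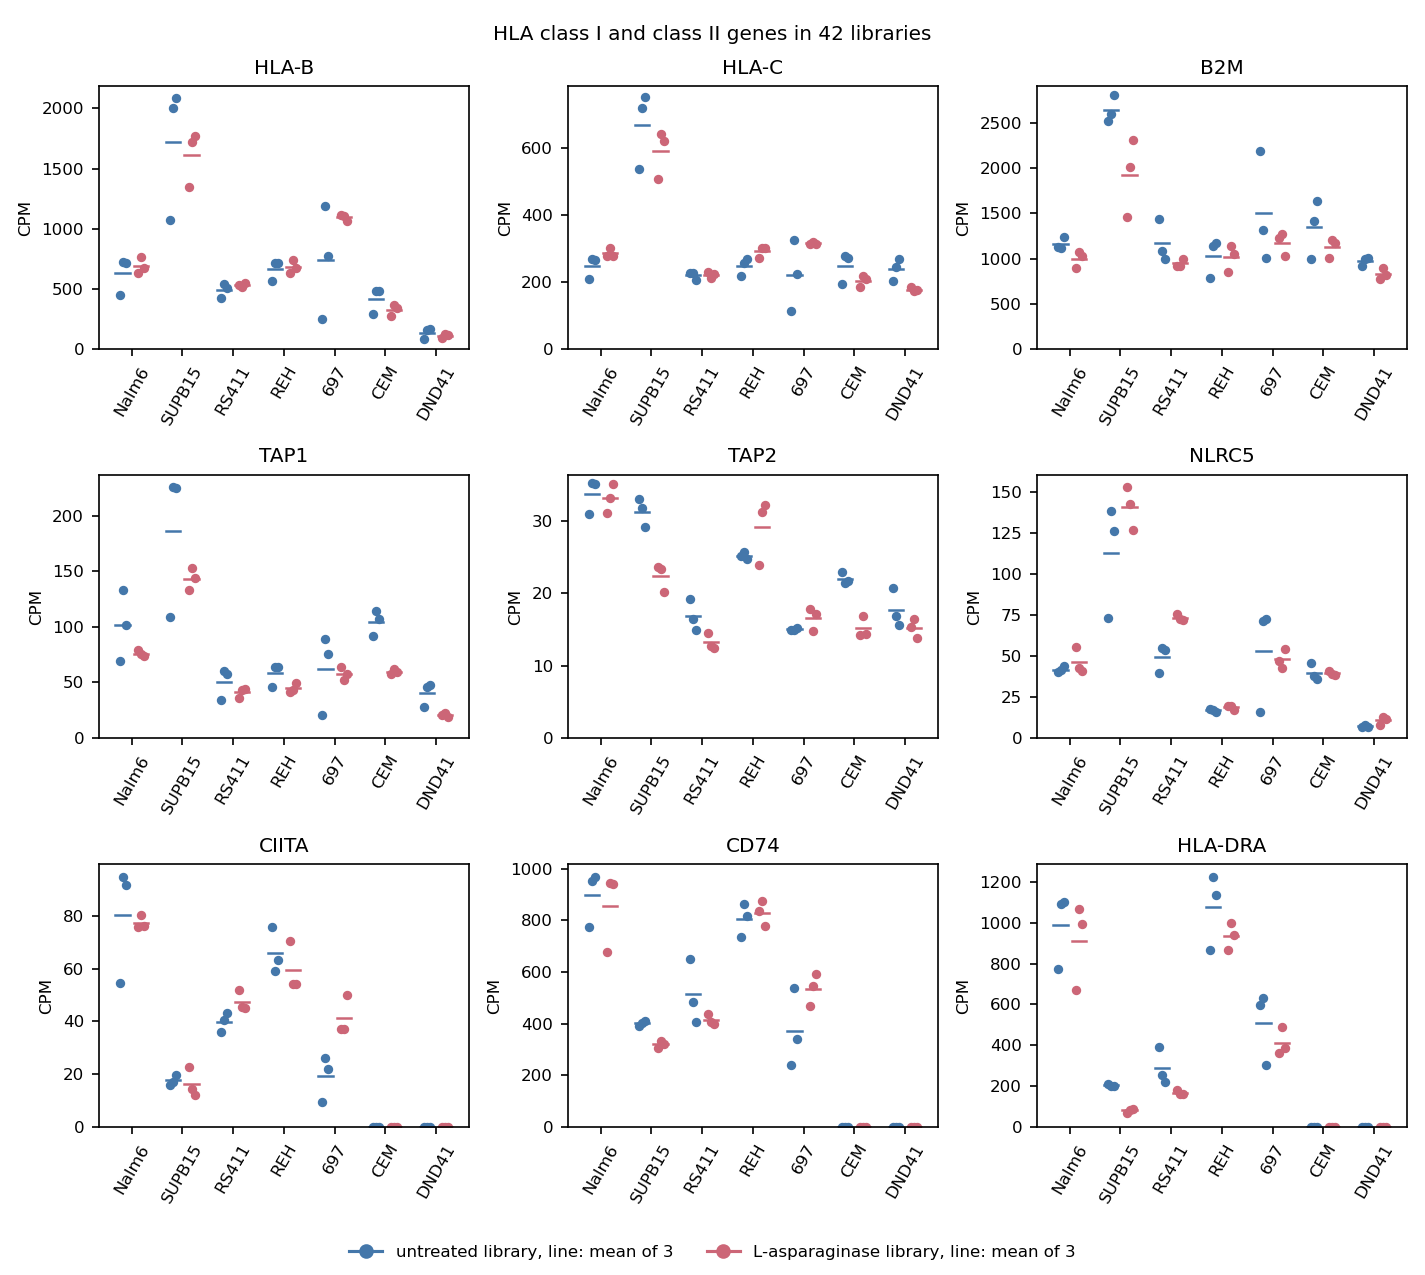
CPM of 6 HLA class I genes (HLA-B, HLA-C, B2M, TAP1, TAP2, NLRC5) and 3 class II genes (CIITA, CD74, HLA-DRA) in all 42 libraries, by cell line, untreated in blue and L-asparaginase in red (points, 3 per group) with lines at the group means. Class II genes sit at or near 0 in CEM and DND41, HLA-DRA is lower in treated SUPB15, TAP1 is lower in treated CEM and DND41, and 1 untreated library of 697 lies far under the others for HLA-B, TAP1 and NLRC5.

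Line by line the number of called genes varied widely, and it has to be read against the share of all genes called in the line. In SUPB15 1 of 36 tested genes rose and 14 fell, against 13.1% and 13.4% of all genes. In CEM 2 of 35 rose and 13 fell, against 19.1% and 18%. In DND41 2 of 35 rose and 11 fell, against 15.3% and 12%. These 3 lines had the most called genes of the set. In Nalm6 1 of 36 rose and 5 fell, against 9.14% and 11.9%. In RS411 2 of 37 rose and 5 fell, against 7.87% and 5.41%. In REH 1 of 36 rose and 4 fell, against 13.5% and 13.6%. In 697 none of 36 was called, against 1.67% and 0.954% of all genes. At an unadjusted p under 0.05 the count in 697 was 4, DESeq2 called 3, and without untreated 1 edgeR called 9, with CIITA, IFIT2 and IRF7 higher and BST2, MX2, NLRC5, STAT2, TAP1 and TRIM22 lower. The shares of all genes called in these settings were not computed.

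The median log2 fold change of the tested members was -0.37 in SUPB15, -0.28 in CEM, -0.26 in RS411, -0.21 in 697, -0.20 in DND41, -0.06 in Nalm6 and -0.02 in REH, where the medians over all genes lay between -0.03 and -0.0019. Several of these medians moved with the libraries that stood apart. In RS411 the median was -0.07 without untreated A, -0.13 without treated B and -0.17 with the replicate block, in Nalm6 it was -0.15 without untreated A, in SUPB15 -0.24 without treated C, and in REH 0.00092 without treated A. In SUPB15, 11 of 27 tested interferon-stimulated genes fell, beside 3 of 9 HLA genes. The counts were 11 of 29 beside 2 of 6 in CEM and 9 of 29 beside 2 of 6 in DND41. In Nalm6 and REH no HLA gene was called. The number of called genes in RS411 rested on few libraries. It was 11 with the replicate block or without untreated A, and 2 without any 1 of the 3 treated libraries. In REH it was 13 with the replicate block, and 3 without untreated B or treated C, and in SUPB15 8 without treated B, 10 without treated C and 20 without untreated A. For these alternatives no share of all genes called was computed. Of the 38 genes 28 were called in at least 1 line, none of them in opposite directions in the models of all libraries without a block. The share of all genes called in any line, or in opposite directions, was not computed, so neither count has a background beside it. The absence of opposite calls did not hold in every setting. With the replicate block IFIT1, IFIT3 and HLA-C passed as higher in REH and IFIT5 as higher in SUPB15, and all 4 as lower in CEM. Without the first untreated libraries USP18 was higher in RS411 and lower in DND41, NLRC5 higher in RS411 and lower in 697, and IFIT5 higher in SUPB15 beside its fall in CEM. Without the 3 treated libraries TAP2 was higher in REH beside its fall in CEM.

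Whether the response differed between lines was tested with the interaction of treatment and line. It passed for STAT2, IFIT1, IFIT3, DTX3L, TAP2 and USP18, 6 of the 33 genes (18.2%), where 21.1% of all genes passed, a share near the background. The count depended on the libraries that stood apart and on the model. It was 18 without the 5 untreated libraries, 5 without the 3 treated ones, 12 without 697 untreated 1 and 14 with the replicate block. The share of all genes that passed was not computed in these settings, so these counts have no background beside them. Line values ranged from -1.93 to 0.38 for IFIT1 and from -1.41 to 0.33 for IFIT3, with REH highest in both. For STAT2 they ran from -1.69 in REH to -0.53 in 697, so REH held the lowest value of STAT2 and the highest of IFIT1.

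**Figure D4:**
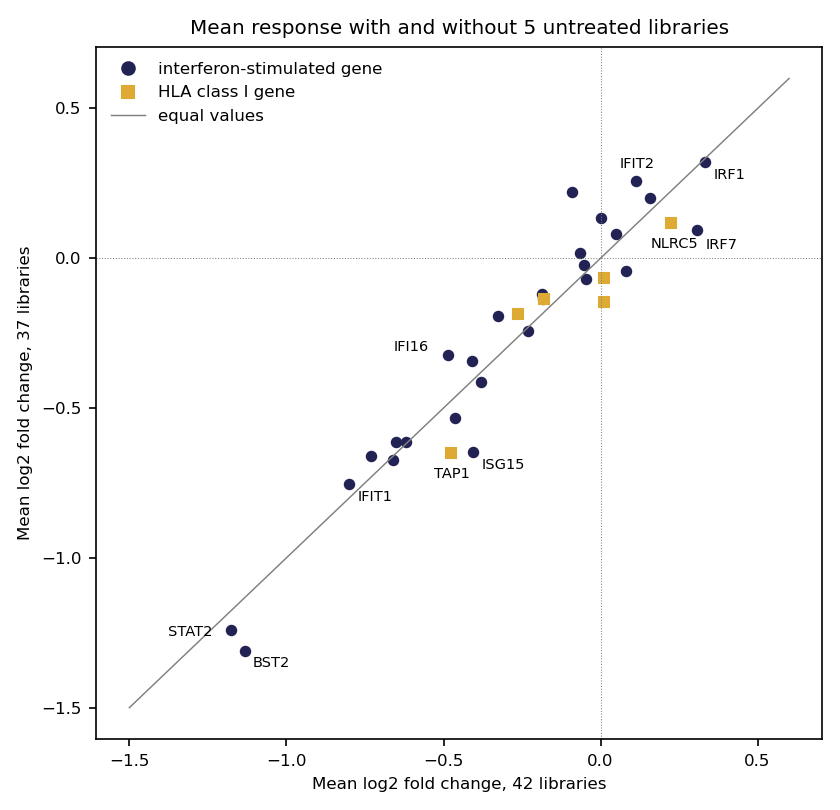
Mean log2 fold change over 7 lines for the 33 genes with a defined mean, from all 42 libraries (x axis) and from the 37 left without the first untreated library of 5 lines (y axis), with interferon-stimulated genes as circles, HLA class I genes as squares and a grey line of equal values. STAT2 and BST2 lie lowest on both axes, while ISG15, TAP1 and IRF7 lie under the line and IFI16 above it.

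Untreated levels differed between lines for all 38 genes (largest adjusted p = 0.00078), where 87.7% of all genes did. Over the 33 genes with more than 3 counts in every group, the highest line mean exceeded the lowest by a median of 4.05-fold. The values ran from 1.89-fold for PARP9 to 197-fold for MX1, whose lowest mean (0.0984 CPM in 697) rests on few counts. The line 697 had the lowest untreated mean for 14 of the 29 interferon-stimulated genes and DND41 the highest for 11. Without the 5 first untreated libraries these counts were 9 for 697, the lowest in more genes than any other line, and 12 for DND41. With all libraries, the range of 697 lay apart from the next line for IFIH1, IFIT2, IFI6, OAS3 and MX1 and overlapped with it for the others. That of DND41 lay apart for IRF9, IFI6, IFI44, IFI44L and MX2 and overlapped for the others. The share of all genes for which 697 was lowest or DND41 highest was not computed. IFI44 ran from 1.09 CPM in SUPB15 to 50.1 CPM in DND41, MX2 from 0.683 to 81.9 CPM in the same 2 lines, and IFI6 from 3.35 CPM in 697 to 56 CPM in DND41. IFI44L stood at 5.89, 5.12 and 6.76 CPM in untreated DND41 and at 0 counts in untreated SUPB15. OAS3 was low in 697 (2.53 CPM) and high in CEM (56.2 CPM), DND41 and REH.

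The order of lines was not shared by all members. USP18 was highest in SUPB15 (38.7 CPM), where IFI44 and MX2 were lowest, and OAS2 was highest in RS411 (62.5 CPM) and lowest in CEM (9.63 CPM). Class I genes ordered the lines differently. SUPB15 had the highest untreated mean for 5 of the 6 and DND41 the lowest for 4, with the same counts without the first untreated libraries. HLA-B went from 1719 CPM in SUPB15 to 136 in DND41, with CEM (419 CPM) next lowest, and NLRC5 from 112 to 7.2 CPM in the same lines. The order of NLRC5 and HLA-B differed in REH, with 17 CPM of NLRC5, above DND41 alone, and 662 CPM of HLA-B, above DND41, CEM, RS411 and Nalm6. Untreated ranges of DND41 and CEM did not overlap for HLA-B (82.5, 161 and 163 against 290.3, 484 and 484 CPM). Those of the middle lines did, and REH (561, 711 and 714 CPM) and Nalm6 (446, 726 and 717 CPM) cannot be ordered for it. Without the first untreated libraries HLA-B still ran from 162 CPM in DND41 to 2040 in SUPB15.

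Other genes of the pathway are described by list, with the genes of largest called change named. Counts over the mean response of all 42 libraries are read against 17.6% of all genes that rose and 19.4% that fell. None of the 8 interferon genes examined (IFNA1, IFNA2, IFNB1, IFNE, IFNG, IFNK, IFNL1 and IFNW1) passed the filter on low counts. This held for the joint model and for each line model, so their response was not tested there. Their highest untreated line mean was 0.0296 CPM (IFNB1 in SUPB15), and other interferon genes were not examined. Of 7 receptor and kinase genes with a defined mean 2 rose and 4 fell, with the same counts without the 5 untreated or the 3 treated libraries. IFNAR1 rose (0.42 ± 0.0513) and so did IFNGR1 (0.28 ± 0.0519), while the kinase JAK1 (-0.42 ± 0.045) and IL10RB, a chain of the interferon lambda receptor (-0.40 ± 0.0588), fell. Of 9 negative regulators 1 rose (PTPN6, 0.23 ± 0.0766) and 4 fell, among them IRF2 (-0.29 ± 0.0791), PTPN11 (-0.29 ± 0.0359) and PIAS3 (-0.25 ± 0.0635). Without the 5 untreated libraries 3 of these 9 rose and 5 fell, and without the 3 treated libraries none rose and 4 fell.

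Of 12 genes that induce interferon on sensing nucleic acids 3 rose and 6 fell (2 and 5 without the 5 untreated libraries, 2 and 6 without the 3 treated ones). Among them stood the adaptor TRAF3 at -0.49 ± 0.0551, TLR3 at -0.44 ± 0.1, its adaptor TICAM1 at 0.39 ± 0.0891 and MB21D1, the DNA sensor cGAS, at 0.38 ± 0.078. Line values of MB21D1 ran from -0.30 to 2.31 (interaction adjusted p = 0.00012), with 0.0595 CPM in untreated DND41. Those of TLR3 ran from -1.24 to 0.52 (interaction adjusted p = 0.014). Of 39 further interferon-stimulated genes 5 rose and 25 fell, with a median of -0.33, and without the 5 untreated libraries 6 rose and 26 fell (5 and 24 without the 3 treated ones). ZC3HAV1, the zinc finger antiviral protein, fell by 1.11 on the log2 scale (-1.11 ± 0.0607, adjusted p = 1.5e-16), the guanylate-binding protein GBP4 by 0.86 and the restriction factor TRIM5 by 0.65. RSAD2, the antiviral enzyme viperin, rose by 0.63 in the mean, with line values from -0.37 to 1.53 (interaction adjusted p = 0.00054).

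Of 15 further class I pathway genes 1 rose, TAPBPL (0.41 ± 0.0754), and 7 fell, led by the peptide trimming enzyme ERAP2 (-0.45 ± 0.0583) and the immunoproteasome subunits PSMB8 (-0.36 ± 0.108) and PSMB9 (-0.36 ± 0.0648). Without the 5 untreated libraries 1 of the 15 rose and 6 fell. PSMB9 shares its start region with TAP1 on the opposite strand. Of 5 further class II pathway genes with a defined mean none rose and 3 fell, HLA-DMA (-0.55 ± 0.0796), the protease CTSS (-0.37 ± 0.102) and the promoter factor RFX5 (-0.20 ± 0.0421). In SUPB15, where HLA-DRA fell, 8 of 14 tested class II pathway genes fell and none rose, with a median of -0.61, where 13.4% of all genes fell. In Nalm6 1 of 14 fell (against 11.9% of all genes), in RS411 1 of 14 (against 5.41%), in REH 3 of 13 (against 13.6%) and in 697 none of 13 (against 0.954%).

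The ISRE core of the promoter windows was present in 11 of the 14 genes with a window that fell in the mean and in 6 of the other 14. TAP1 and B2M, which fell, hold it, and HLA-B and HLA-C, which were not called, do not in these 300 bases. STAT2, IFI16 and OAS1 fell without it, and IFIT5, IFI44 and ISG15 hold it and were not called in the mean. These counts are descriptions of letters in a window, with no test.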

How the data were processed

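RNA-seq counts of 42 libraries from 7 leukaemia cell lines were used, with 3 untreated and 3 L-asparaginase libraries per line. The authors deposited 1 table of raw read counts per gene for each line, and the genome build is hg19, per the submitters' processing notes. Not given in the sources used here are the aligner, the counting program, the annotation and whether strand was used. Columns were matched to groups by line and treatment; the letters A to C of 6 tables are column names, not label replicate numbers.

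Tables were joined on 50648 shared gene names. R 4.3.3 and edgeR 4.0.16 were used, with TMM scaling, filterByExpr (minimum count 10) and quasi-likelihood tests adjusted by Benjamini-Hochberg over all genes tested, called at an adjusted p under 0.05. There was 1 model per line (6 libraries) and 1 joint model of 14 groups for the mean response, the interaction of treatment and line, and untreated levels. SE is the absolute log2 fold change over the square root of F. No libraries were duplicates (lowest chi-square per degree of freedom between replicates 14.96). The scripts were tested on simulated data.

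The 38 genes and all lists were chosen with earlier results of these data known. Genes given for every line, by library or as mean ± SD, included the 10 called ones with the largest mean change. So were the 3 largest called and non-overlapping ones per line, the 6 called interactions and the HLA genes. Class II genes of the T lines are given by counts. Of each pathway list up to 4 called genes were named. IRF9 and OASL, under 1 CPM on average, are given by level. DDIT3, and genes named for a lost or absent call, were named after their values were seen.

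Libraries with the same letter or number deviated together in 5 lines (every correlation over 0.1 in SUPB15, RS411, REH, CEM and DND41) and not in Nalm6 (lowest 0.0426) or 697 (lowest -0.0483); this pairing comes from the data. Alternatives were RLE scaling, no filter, DESeq2 1.42.0, a replicate block, each library or line left out, and the libraries that stood apart left out together. Fits of the joint model without a library or a line kept the dispersion trend of the full model.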

Additional observations from a re-analysis of the deposited data

Results flagged for a closer look

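The response to L-asparaginase differed between lines for 6 genes by the interaction of treatment and line in the joint edgeR quasi-likelihood model, and the share of such genes was near that of all genes. IFIT1 had an interaction adjusted p of 0.0017, with falls in SUPB15, CEM and DND41 and a positive value without a call in REH. IFIT3 had 0.0031, with the same 3 lines lower. TAP2 had 0.0038, with falls in SUPB15 and CEM and positive values without a call in REH and 697. DTX3L had 0.0063, with a rise in DND41 and a negative value without a call in 697. STAT2 had 0.0066, with negative values in all 7 lines that differed in size. USP18 had 0.034, with a fall in DND41 and no call in the other 6 lines.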

How the results depend on the processing

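Of 283 counts recomputed under an alternative, 245 stayed within 1.5 times the reported one. Of 351 recomputed values for 28 selected results, 344 kept their direction and call, 7 lost the call and 0 reversed. The 28 were the largest called changes in the mean and the 3 largest called, non-overlapping ones of each line with calls. This share does not cover the weaker calls of named genes. Several of those were lost more often, among them DDX58 in the mean and CD74 in SUPB15. The number of falls in the mean response (17) ran from 15 to 18, and all 38 untreated levels differed between lines in every alternative run. The number of rises in the mean (2) was 1 with RLE scaling, 1 with no filter, 4 without the 5 first untreated libraries, 1 without the 3 treated libraries, 1 without SUPB15 or CEM, 4 without 697, and 1 to 4 on leaving out single libraries (4 without 697 untreated 1). Interactions (6) numbered 14 with DESeq2, 14 with the replicate block, 18 without the 5 untreated libraries, and 5 to 12 without single libraries (12 without 697 untreated 1 and 11 without 697 untreated 2).

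By line, RS411 (7) had 11 with the replicate block, 11 without the 5 untreated libraries, 2 without the 3 treated ones, and 2 to 11 without single libraries (4 without untreated B). REH (5) had 13 with the replicate block and 3 to 8 without single libraries (8 without untreated A). SUPB15 (15) had 8 to 20 without single libraries, and 697 (0) had 3 with DESeq2, 9 without the 5 untreated libraries and 0 to 9 without single libraries. Nalm6, CEM and DND41 stayed within 1.5 times. The replicate block gave 7 called genes in Nalm6, 14 in SUPB15, 0 in 697, 21 in CEM and 15 in DND41, and 3 rises and 17 falls in the mean. Blocks share only a letter in Nalm6 and only a number in 697, with 2 and 1 libraries correlating best with their own. The block was not run for the untreated levels. The cause of these shifts was not tested.

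With 3 libraries per group a missed threshold does not show that a gene did not change. Genes with few counts, such as OASL, IRF9 and the class II genes of the T lines, support levels only. How reads shared by HLA-B and HLA-C, or by overlapping genes, were assigned is not known here.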
